A study of Mus musculus with 12 samples.

Results

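The 9 genes described here are the peroxisome proliferator-activated receptors (PPARs), their shared partner and a set of genes that respond to them, measured in mouse kidney. They were chosen by name: the receptors Ppara, Ppard and Pparg, the partner receptor Rxra, and the responsive genes Pdk4, Angptl4, Cyp4a10, Cyp4a14 and Fabp1. All 9 were among the 27179 genes listed, and 9 of 9 passed the filter on low values that left 14972 genes for testing. Another 69 PPAR pathway genes were listed by function for comparison, and 63 of these passed the same filter.

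RNA from whole kidney was sequenced from 12 mice of mixed strain background, 8 to 12 weeks old, in 4 groups of 3. Wild-type (WT) mice received saline or cisplatin, a platinum drug that crosslinks DNA and injures the proximal tubule, given by injection into the abdomen at 2 mg/kg each week for 5 weeks. FAN1KO mice, labelled Ggt1-Cre with Fan1-/-, received the same 2 treatments. Ggt1-Cre acts in the proximal tubule, so the other kidney cells in a FAN1KO sample still carry Fan1, the gene of a nuclease that helps to repair DNA crosslinks. Fan1 RNA was 1.98 to 3.80 TPM (transcripts per 1000000) in WT saline and 1.17 to 2.28 in FAN1KO saline kidneys, and 2.33 to 3.57 in WT cisplatin and 1.55 to 3.51 in FAN1KO cisplatin kidneys. These ranges overlap between the genotypes, so the genotype was taken as labelled.

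PPARs are nuclear receptors that bind fatty acids and related lipids. Each pairs with a retinoid X receptor such as RXRA on a DNA element called DR1, which is a direct repeat of a receptor half-site with a single base between the copies, and switches on genes that take up, store and oxidise fatty acids. PPARA is known for this role in the proximal tubule, a part of the kidney that draws much of its energy from fatty acids, PPARD is broadly expressed, and PPARG is best known from fat cells.

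The whole series had 37134863 to 82856494 reads per library in the genes tested, as recovered from the steps in the TPM values, so that 1 read in a transcript of 1 kb was worth 0.02 to 0.0479 TPM. In each group 1 library held Y-linked RNA: the summed TPM of Ddx3y, Eif2s3y, Kdm5d and Uty was 65.1 to 92.2 in WT saline 3, FAN1KO saline 1, WT cisplatin 1 and FAN1KO cisplatin 3, while in each of the other 8 it did not exceed 0.311. The labels do not give the sex of the mice, so results that rest on these libraries are given with and without them. Proximal tubule markers were present in all libraries, with a summed TPM of 2670 to 4827 over 9 markers in FAN1KO cisplatin and 5783 to 9792 elsewhere. A second scaling, by the median ratio of each library to the series, moved the median of all genes from 0.24 to -0.01 (log2) for FAN1KO against WT under cisplatin and from 0.37 to -0.01 for cisplatin against saline in FAN1KO. The split of calls, 654 lower and 2931 higher in the first comparison and 733 and 5229 in the second, then became 1155 and 1388, and 2047 and 2333.

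A window of 29 bases around the best DR1 match is shown for 3 members (the 2 with the closest matches, and Pdk4 as one that rose) and, as examples of pathway genes with a close match, for Plin2, which rose, and Cat, which fell, since this is the element through which PPARs are known to act. The DR1 consensus was searched on both strands in the 300 bases around each start site (RefSeq, GRCm38.p6), with its spacer free. The capitals mark the match with its spacer, and each line reads 5′ to 3′ along the matched strand.

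Fabp1: tcagatatAGGCCATAGGTCAgtgattgt
Rxra: ctgagtaaTGGTCATAGGCCAgtgggtgg
Pdk4: aagggaggAGCCCAAAGTTCTttctctga
Plin2: tctgacttAGGTCAGGGGTCCtgaaagct
Cat: actctcagAGGTCAGAGAACAccagcagg

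The Fabp1 window, at chr6:71199804-71199832 on the minus strand with its match 67 bases before the start, differed from the consensus at 1 base, a closeness that 0.554% of 32851 windows reached. Those of Rxra (chr2:27709209-27709237, plus strand, at the downstream of its listed starts), Plin2 (chr4:86670264-86670292, plus strand) and Cat (chr2:103485337-103485365, minus strand) had 2 mismatches, as close as 3.86% of all windows. Pdk4 (chr6:5496414-5496442, minus strand) had 4, as did the best windows of Ppara and Pparg, a distance that 79.8% of all windows met, and Ppard had 5. A match with at most 2 mismatches was found in 2 of 9 windows (22.2%) of the 6 members with an entry and in 9 of 66 windows (13.6%) of 51 other pathway genes, where Cd36, Slc25a20, Ucp3, Acot4, Aqp7 and Creb3l3 held the others. The Aqp7 site was counted in overlapping windows of different starts, so these 9 windows came from 8 genes. Acadm and Acadvl, which are described below, had 3 and 4 mismatches. Angptl4, Cyp4a10 and Cyp4a14 had no entry. A match in letters is a description and not a binding site.

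In broad terms, Pdk4 and Angptl4 rose in FAN1KO kidneys given cisplatin against FAN1KO kidneys given saline, where 34.9% of genes tested were called higher. The Angptl4 difference was of like size in WT kidneys, where it did not pass. Ppard was lower in FAN1KO than in WT kidneys under cisplatin, but the call held in only 2 of 6 fits with 1 library left out. That call also ended among the 8 libraries without Y-linked RNA. Ppara did not pass the test in any comparison. Cyp4a10, Cyp4a14 and Fabp1 split by library: they were low in the library with Y-linked RNA in 3 groups, and the 2 Cyp4a genes were not low in that of the fourth group, FAN1KO cisplatin. Differences below are log2 fold changes of TPM + 1 from limma, with a standard error (SE) over the libraries and p-values adjusted over all genes tested.

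**Figure D1:**
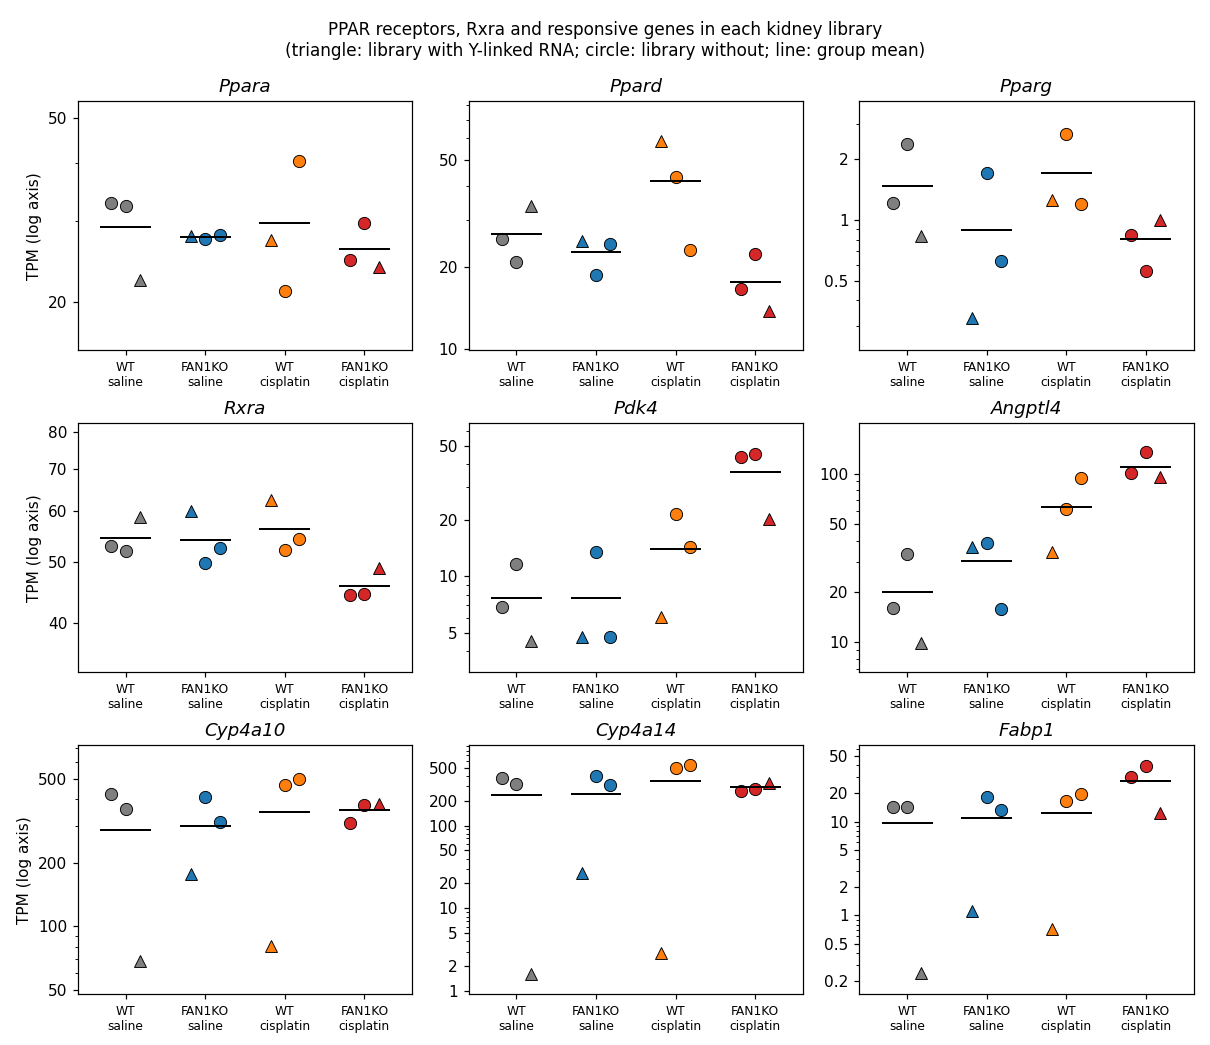
TPM on a log axis of each member in the 12 kidney libraries, by group, with triangles for libraries that hold Y-linked RNA, circles for the others and lines for group means (n = 3). The group means of Pdk4 and Angptl4 are highest in FAN1KO cisplatin, and Cyp4a14 is below 30 TPM in 3 of the 4 triangles.

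Among the receptors, Ppara (chromosome 15: 85734910 to 85806851) is the PPAR most tied to fatty acid oxidation. Its level was 32.7, 32.2 and 22.3 TPM in WT saline, 27.7, 27.4 and 28.0 in FAN1KO saline, 27.2, 21.2 and 40.5 in WT cisplatin and 24.6, 29.7 and 23.9 in FAN1KO cisplatin. The groups overlapped in all 4 pairs compared. Under cisplatin the difference of FAN1KO from WT was -0.14 (SE 0.22, 95% interval -0.61 to 0.34, adjusted p = 0.675), so that the interval spans 0. Leaving out 1 library at a time gave -0.34 to 0.11.

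Ppard (chromosome 17: 28232754 to 28301469), the receptor with the broadest known expression, overlaps the gene 1810013A23Rik, and reads in the shared bases may come from either. Its level was 25.5, 20.9 and 33.7 TPM in WT saline and 25.1, 18.7 and 24.5 in FAN1KO saline. In WT cisplatin kidneys it was 58.8, 43.1 and 23.3 TPM and in FAN1KO cisplatin kidneys 16.7, 22.4 and 13.8 TPM. Under cisplatin the genotypes did not overlap, by a margin of under 1 TPM between the lowest WT and the highest FAN1KO library. WT cisplatin 1, a library with Y-linked RNA, stood highest of all 12. Such a library was also the highest in WT saline and FAN1KO saline, but the lowest in FAN1KO cisplatin. Its ratio to the mean of the other 2 was 1.45 in WT saline, 1.16 in FAN1KO saline, 1.77 in WT cisplatin and 0.706 in FAN1KO cisplatin. The fold change was -1.13 (SE 0.31, 95% interval -1.81 to -0.45, adjusted p = 0.0253 by limma), a ratio of means of 0.423. An exact permutation test of this gene alone gave p = 0.1, two-sided, the smallest that 3 mice against 3 allow.

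Ppard was the only member called lower in that comparison, 1 of 9, where 4.37% of genes tested were called lower. The call ended without WT cisplatin 1 (-0.84, adjusted p = 0.0925), WT cisplatin 2 (-1.06, 0.0644), FAN1KO cisplatin 1 (-1.10, 0.0865) or FAN1KO cisplatin 3 (-0.97, 0.067). It ended too among the 8 libraries without Y-linked RNA (-0.68, adjusted p = 0.103) and in a fit of the 6 cisplatin libraries alone (-1.13, 0.0701). Cisplatin against saline gave 0.56 (SE 0.31) in WT and -0.36 (SE 0.31, adjusted p = 0.37) in FAN1KO kidneys, and neither passed. The test of whether the genotypes responded differently to cisplatin gave -0.92 (SE 0.44, adjusted p = 0.219). Among saline kidneys the difference was -0.21 (SE 0.31, adjusted p = 1.0).

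Pparg (chromosome 6: 115360879 to 115490404), the fat cell receptor, was near the lower end of what these libraries measure, at 19 to 117 reads each. Its level was 1.21, 2.39 and 0.835 TPM in WT saline, 0.328, 1.71 and 0.625 in FAN1KO saline, 1.25, 2.67 and 1.21 in WT cisplatin and 0.843, 0.561 and 1.00 in FAN1KO cisplatin. All 3 FAN1KO cisplatin libraries lay below all 3 WT cisplatin libraries. The difference of -0.55 (SE 0.32) did not pass the test (adjusted p = 0.229). The summed TPM of 6 adipocyte markers ran from 1.78 to 79.1 in WT cisplatin and from 2.72 to 30.6 in FAN1KO cisplatin, and Adipoq, a hormone gene of fat cells, was 13.1, 5.37 and 0 TPM in the first and 0, 0 and 1.83 in the second. The part of fat in the Pparg level was not tested.

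Rxra (chromosome 2: 27676445 to 27763319) encodes the shared partner, and its differences had the smallest SE of the members. It was 52.9, 52.0 and 58.7 TPM in WT saline, 60.0, 49.8 and 52.6 in FAN1KO saline, 62.4, 52.2 and 54.2 in WT cisplatin and 44.3, 44.5 and 48.8 in FAN1KO cisplatin. The FAN1KO cisplatin libraries lay below every other library of the series. Within each group the library with Y-linked RNA was the highest, at 1.1 to 1.17 times the mean of the other 2. Against WT cisplatin the difference was -0.29 (SE 0.10, 95% interval -0.52 to -0.05, adjusted p = 0.0705), and against FAN1KO saline it was -0.23 (SE 0.10, adjusted p = 0.101). A position without overlap in the lower direction was held by 7.43% of genes tested in the second comparison. Neither difference passed the threshold, although both passed with the Y-linked level as a covariate (adjusted p = 0.00339 and 0.00698).

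With the 8 libraries without Y-linked RNA the Rxra difference between genotypes under cisplatin was -0.26 (adjusted p = 0.0379). Median-ratio scaling gave -0.57 (adjusted p = 0.1) for that comparison, and -0.66 (adjusted p = 0.0437) for cisplatin against saline in FAN1KO. Ppard, Pparg and Rxra were the 3 members of 9 whose FAN1KO libraries were all below the WT libraries under cisplatin, a pattern that 8.6% of genes tested showed. Between the same groups 7 of 9 proximal tubule markers were called lower, with sums of 2670 to 4827 TPM against 5783 to 8366 in WT cisplatin, and 5 of 5 tubule injury markers were called higher, where 4.37% and 19.6% of genes tested were. Of the other lists, 4 of 4 erythroid markers were called lower (summed TPM 6.56 to 73.3 against 2318 to 6571) and 1 of 6 macrophage markers higher, and 0 of 5 endothelial markers passed, all 5 being below 0. Among the 8 libraries without Y-linked RNA, 8 of 9 proximal tubule, 4 of 4 erythroid and 5 of 5 endothelial markers were called lower, where 7.76% of genes tested were. In that fit 4 of 5 injury and 3 of 6 macrophage markers were called higher, where 28.9% of genes tested were. The part of these cells in the member levels was not tested. In whole kidney, fewer cells of a type and less RNA per cell cannot be told apart.

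**Figure D2:**
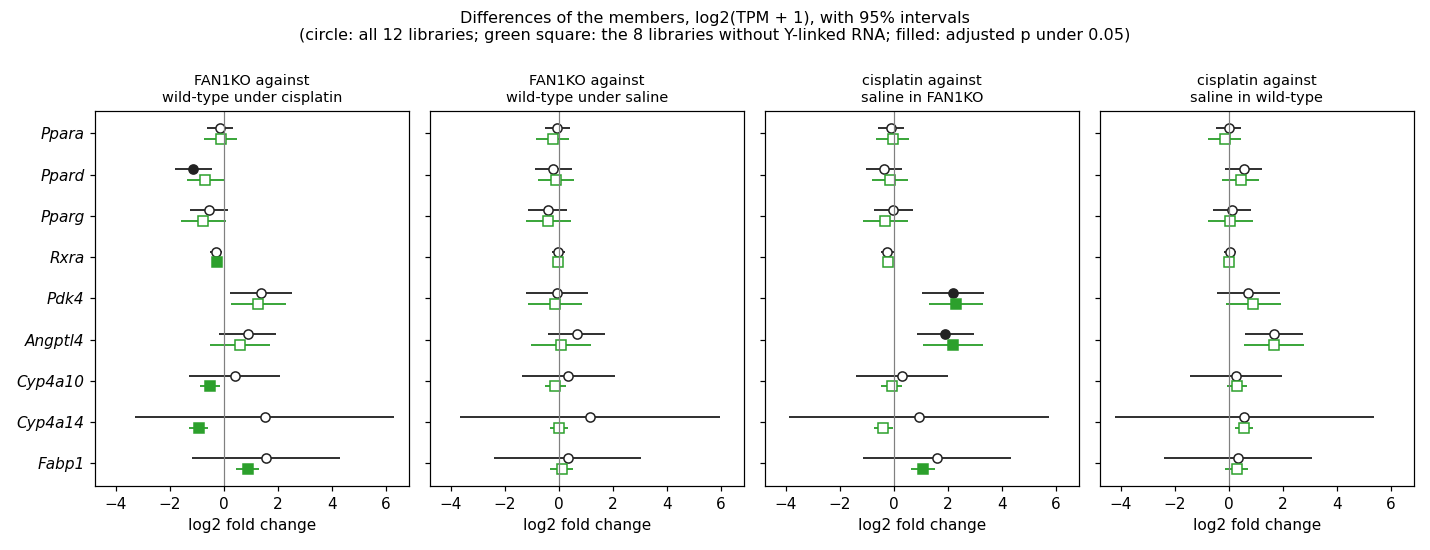
Log2 fold change of TPM + 1 with its 95% interval for each member in 4 comparisons, with circles for all 12 libraries, green squares for the 8 without Y-linked RNA, and filled symbols for an adjusted p under 0.05. Pdk4 and Angptl4 are filled in both fits for cisplatin against saline in FAN1KO, and the wide intervals of Cyp4a10, Cyp4a14 and Fabp1 shorten without the 4 libraries with Y-linked RNA.

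Pdk4 (chromosome 6: 5483351 to 5496278) encodes a mitochondrial kinase that shuts off pyruvate dehydrogenase and so spares glucose when fat is burnt. Its level was 6.83, 11.6 and 4.49 TPM in WT saline, 4.71, 13.4 and 4.75 in FAN1KO saline, 6.06, 21.6 and 14.4 in WT cisplatin and 43.6, 45.2 and 20.2 in FAN1KO cisplatin. All FAN1KO cisplatin libraries stood above all FAN1KO saline libraries, whereas WT cisplatin overlapped both WT saline and, by 1 library, FAN1KO cisplatin. In each group the library with Y-linked RNA was the lowest of the 3, at 0.336 to 0.518 of the mean of the other 2.

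Cisplatin raised Pdk4 in FAN1KO kidneys by 2.18 (SE 0.52, 95% interval 1.03 to 3.33, adjusted p = 0.00848 by limma), with means of 36.3 against 7.63 TPM, a ratio of 4.76. Pdk4 and Angptl4 were the 2 of 9 members called higher there, where 34.9% of genes tested were called higher and 4.9% lower, so the count itself does not set the members apart. The same 2 were higher without overlap, as were 47.4% of genes tested. The Pdk4 call held in all 9 other settings and with any 1 library left out. In WT kidneys the same comparison gave 0.73 (SE 0.52, adjusted p = 1.0), and the difference between the genotypes' responses was 1.45 (SE 0.74, adjusted p = 0.251). The test of unequal responses passed for 0 of 9 members, where 1.02% of genes tested were called lower and 5.22% higher. The comparisons with FAN1KO cisplatin share those 3 libraries.

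Between genotypes under cisplatin, Pdk4 differed by 1.38 (SE 0.52, 95% interval 0.23 to 2.53, adjusted p = 0.0775). It passed the threshold without FAN1KO cisplatin 3 (1.75, adjusted p = 0.0469), with the Y-linked covariate (1.41, 0.00464), by voom on the recovered reads (1.53, 0.0435) and in the fit with a replicate block (1.38, 0.0299). These were 1 of 6 fits with 1 library left out (adjusted p up to 0.264) and 3 of 9 other settings (up to 0.11). Pdk4 did not pass among the 8 libraries without Y-linked RNA. With the covariate the test of unequal responses passed also (1.45, adjusted p = 0.0327).

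Angptl4 (chromosome 17: 33774900 to 33781575) encodes a secreted inhibitor of lipoprotein lipase. It was 15.9, 33.6 and 9.89 TPM in WT saline, 36.6, 38.9 and 15.8 in FAN1KO saline, 34.2, 61.7 and 94.1 in WT cisplatin and 101, 134 and 94.96 in FAN1KO cisplatin. Cisplatin and saline libraries did not overlap in either genotype, and FAN1KO cisplatin lay above WT cisplatin by under 1 TPM at its nearest pair.

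In FAN1KO kidneys Angptl4 rose by 1.90 (SE 0.48, 95% interval 0.85 to 2.96, adjusted p = 0.0105 by limma), with means of 109.9 against 30.4 TPM, a ratio of 3.61, and the call held in all 9 other settings and with any 1 library left out. In WT kidneys the difference was of like size, 1.68 (SE 0.48, 95% interval 0.62 to 2.74), with a ratio of 3.2, but its adjusted p was 0.962. In that comparison limma called 9 genes (0.0601%) higher and 0 (0.0%) lower, while 449 (3.0%) had an unadjusted p under 0.05, Angptl4 among them at 0.00513. Angptl4 was the 1 member of 9 whose WT groups did not overlap, a pattern that 5.2% of genes tested showed in the higher direction. The test of unequal responses gave 0.22 (SE 0.68, 95% interval -1.27 to 1.72, adjusted p = 0.867). Between genotypes under cisplatin the difference was 0.88 (SE 0.48, adjusted p = 0.2). There Angptl4 alone of the members was higher without overlap, as were 35.7% of genes tested.

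Lpl, the lipoprotein lipase gene whose product ANGPTL4 blocks, fell by 2.16 between genotypes under cisplatin (SE 0.29, adjusted p = 0.0011). It was 315, 216 and 222 TPM in WT cisplatin and 51.1, 54.3 and 58.5 in FAN1KO cisplatin, while in saline it was 321 to 341 in WT and 125 to 323 in FAN1KO. The inhibitor's RNA was thus highest, and the lipase's lowest, in FAN1KO cisplatin kidneys.

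The remaining responsive genes followed the libraries with Y-linked RNA more than the groups. Cyp4a10 and Cyp4a14 encode omega-hydroxylases of fatty acids and lie near each other on chromosome 4 (115518287 to 115533649, and 115486200 to 115496158). Fabp1, the liver-type fatty acid binding protein gene, is on chromosome 6 (71199879 to 71205034). Cyp4a14 overlaps the gene Gm52676.

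Cyp4a14 was 378, 313 and 1.62 TPM in WT saline, 27.1, 395 and 307 in FAN1KO saline, 2.93, 491 and 532 in WT cisplatin and 264, 272 and 328 in FAN1KO cisplatin. The library with Y-linked RNA was lower than the mean of the other 2 by 214, 12.9 and 175 times in the first 3 groups. In FAN1KO cisplatin it was the highest of the 3, so that the same ratio was 0.817.

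Cyp4a10 behaved alike in a smaller range, at 425, 359.9 and 68.7 TPM in WT saline, 176, 410.3 and 312 in FAN1KO saline, 81.1, 466 and 501 in WT cisplatin and 307, 375 and 381 in FAN1KO cisplatin. Here the library with Y-linked RNA was lower by 5.72, 2.05 and 5.96 times in the first 3 groups and again the highest in FAN1KO cisplatin. Fabp1 was 14.4, 14.4 and 0.243 TPM in WT saline, 1.11, 18.5 and 13.2 in FAN1KO saline, 0.721, 16.4 and 19.5 in WT cisplatin and 29.8, 38.8 and 12.3 in FAN1KO cisplatin. The 3 low values rest on 6, 16 and 12 reads, and the ratio of the other 2 libraries to the one with Y-linked RNA was 59.3, 14.2 and 24.9, against 2.79 in FAN1KO cisplatin.

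Cyp4a12a, another omega-hydroxylase gene, singled out after its values were seen, went the other way. It was 416, 359 and 467 TPM in the library with Y-linked RNA of WT saline, FAN1KO saline and WT cisplatin, and 4.41 to 18.9 in the other 6 libraries of those groups. In FAN1KO cisplatin it was 118 TPM in that library and 33.3 and 58.8 in the others, so the ratio fell from 45.8, 42.9 and 28.6 to 2.55. Not every gene of this kind narrowed so far: Slc7a13, a proximal tubule transporter gene, was 143, 422 and 194 times higher in the library with Y-linked RNA in the first 3 groups and 111 times in FAN1KO cisplatin.

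**Figure D3:**
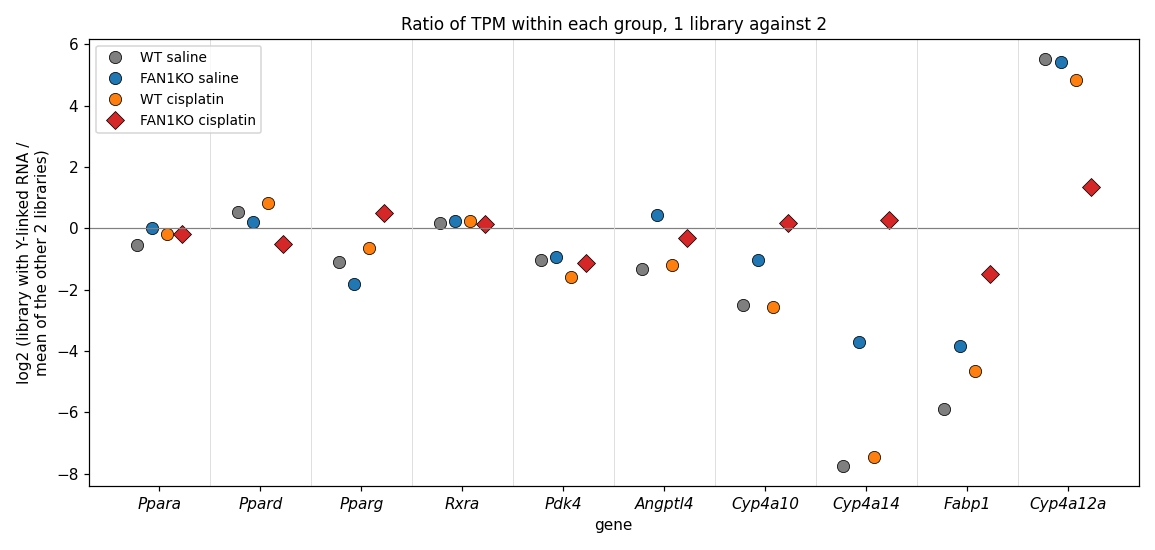
Log2 ratio of the library with Y-linked RNA to the mean of the other 2 libraries in the same group, for each member and Cyp4a12a, with 1 point per group. Cyp4a10, Cyp4a14 and Fabp1 lie far below 0 and Cyp4a12a far above it in 3 groups, and the FAN1KO cisplatin point lies nearest to 0 for all 4.

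A smaller ratio was seen for some genes beyond the members. Of all genes tested but the 4 Y-linked ones, 45 were at least 4-fold lower in the library with Y-linked RNA in each of the other 3 groups, among them Cyp4a14 and Fabp1, and 5 of the 45 were so in FAN1KO cisplatin, which was not used to choose them, at a median ratio of 0.585 of TPM + 1. Of 40 genes that were at least 4-fold higher, among them Cyp4a12a, Cyp4a12b and the fatty acid transporter gene Cd36, 20 were so in FAN1KO cisplatin, at a median ratio of 4.03. With any other group set against the rest, 5 or 6 genes were lower in the 3 groups and 5 of them were so in the group set apart. For genes higher the counts were 20 and 20. FAN1KO cisplatin was then among the groups used to choose the genes, so these shares were largely fixed in advance and are no control. As a single library of this kind stands in each group, there is no test of the smaller ratio in FAN1KO cisplatin.

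With all 12 libraries and no covariate none of the 3 genes passed in any comparison, at an SE of 0.77 for Cyp4a10, 2.17 for Cyp4a14 and 1.24 for Fabp1. The adjusted p for FAN1KO against WT under cisplatin was 0.732, 0.644 and 0.377. With the Y-linked level as a covariate Fabp1 passed in that comparison (adjusted p = 0.00952) and for cisplatin against saline in FAN1KO. Among the 8 libraries without Y-linked RNA, 2 per group, the calls differed. Under cisplatin, Cyp4a10 was then lower in FAN1KO than in WT by -0.51 (adjusted p = 0.047) and Cyp4a14 by -0.93 (0.00398), opposite in sign to the full fit (0.40 and 1.51). Fabp1 was higher by 0.89 (0.0106). With Rxra, 3 of 9 members were called lower and 1 higher in that fit, where 7.76% and 28.9% of genes tested were.

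For cisplatin against saline in FAN1KO the same 8 libraries gave a rise of Fabp1 by 1.07 (adjusted p = 0.00296), beside Pdk4 and Angptl4, where 44.4% of genes tested were called higher, and -0.38 for Cyp4a14 (0.0611). The test of unequal responses passed for Cyp4a14 (-0.95, adjusted p = 0.0259), where 2.9% of genes tested were called lower. Within these 8 libraries WT cisplatin kidneys held 491 and 532 TPM of Cyp4a14 and FAN1KO cisplatin kidneys 264 and 272. Of 5 hepatocyte markers, Ahsg was at 0 in 10 of 12 libraries and at most 0.122 TPM. Alb was 2.10 to 19.4 TPM, with 2.10 to 2.51 in FAN1KO cisplatin, where the group mean of Fabp1 was highest. Apoa2 was higher in FAN1KO cisplatin than in WT cisplatin (means of 8.15 and 1.67 TPM, log2 fold change 1.80, adjusted p = 0.00271), and Serpina1a had means of 10.1 and 1.55 TPM (adjusted p = 0.137). The Apoa2 means in saline were 12.0 TPM in FAN1KO and 2.34 in WT, where those of Fabp1 were 10.9 and 9.71. The summed TPM of the list was 40.3 to 58.4 in FAN1KO cisplatin and 30.4 to 242 in WT cisplatin, most of it Ttr, and its part in the Fabp1 level was not tested.

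Some reads of Cyp4a10 could come from its copies. Its transcript was 95.7% identical to that of Cyp4a31 and 97.2% to that of Cyp4a32, and 15.0% and 24.5% of its stretches of 50 bases were found in them without change, or 1.76% and 2.28% of those of 150 bases. Its level is therefore uncertain by the reads that the counting assigned between them. Cyp4a14 shared no such stretch with Cyp4a10, Cyp4a12a, Cyp4a12b, Cyp4a31 or Cyp4a32, at 76.8% identity with Cyp4a10.

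Among saline kidneys, FAN1KO against WT, 0 of 9 members passed the limma test, where 0.427% of genes tested were called lower and 0.341% higher and 1255 (8.38%) had an unadjusted p under 0.05. The groups overlapped for all 9 members, whereas 7.83% of genes tested were lower and 4.62% higher without overlap. The differences ran from -0.41 for Pparg to 1.15 for Cyp4a14. Among the members with narrow errors, the 95% interval was -0.24 to 0.22 for Rxra and -0.52 to 0.43 for Ppara.

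As a description of how the members vary together over the 12 libraries, which share treatments and the Y-linked split, Cyp4a10 and Cyp4a14 had a Pearson r of 0.992 on the log2 scale, each being the other's closest gene. Pdk4 and Angptl4 had 0.87. Rxra ran against Pdk4 (-0.86) and Fabp1 (-0.88). The genes most like Rxra were Slc22a6 and Slc17a3, both solute carriers of the proximal tubule, at 0.978 each, and those most like Pdk4 were Gm13363 (0.983) and Sphk1 (0.981). Fabp1 was nearest to Hoxd8 (0.987) and Tspan12 (0.986), Angptl4 to Bcl2l1 (0.947) and Bag1 (0.944), Ppard to Akr1e1 (0.867) and Pcyox1l (0.835), and Pparg to Twnk (0.887) and Dhrs3 (0.886). Ppara stood closest to the unnamed gene 100502864 (0.888) and to Tns1 (0.827).

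The wider PPAR pathway moved in both directions. Between genotypes under cisplatin, 11 of 63 genes (17.5%) were called lower and 3 (4.76%) higher, where 4.37% and 19.6% of all genes were, and the median was -0.18 against 0.24 over all genes tested. Under median-ratio scaling the counts were 14 and 1, where 1155 and 1388 of all 14972 genes tested were called lower and higher. By list, 4 of 12 genes of mitochondrial fatty acid oxidation and ketogenesis were lower and 1 higher, 3 of 10 of peroxisomal oxidation were lower, and 3 of 14 of fatty acid uptake, binding and droplets were lower and 1 higher. Of 13 partners and coregulators 1 was higher, of 9 omega-oxidation and thioesterase genes 0 passed, and of 5 other responsive genes 1 was lower. Slc27a2 stands also among the proximal tubule markers, and Cidec and Adipoq among those of adipocytes. In the same comparison 7 of 9 proximal tubule markers were called lower. The part of cell types in the pathway levels was not tested.

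**Figure D4:**
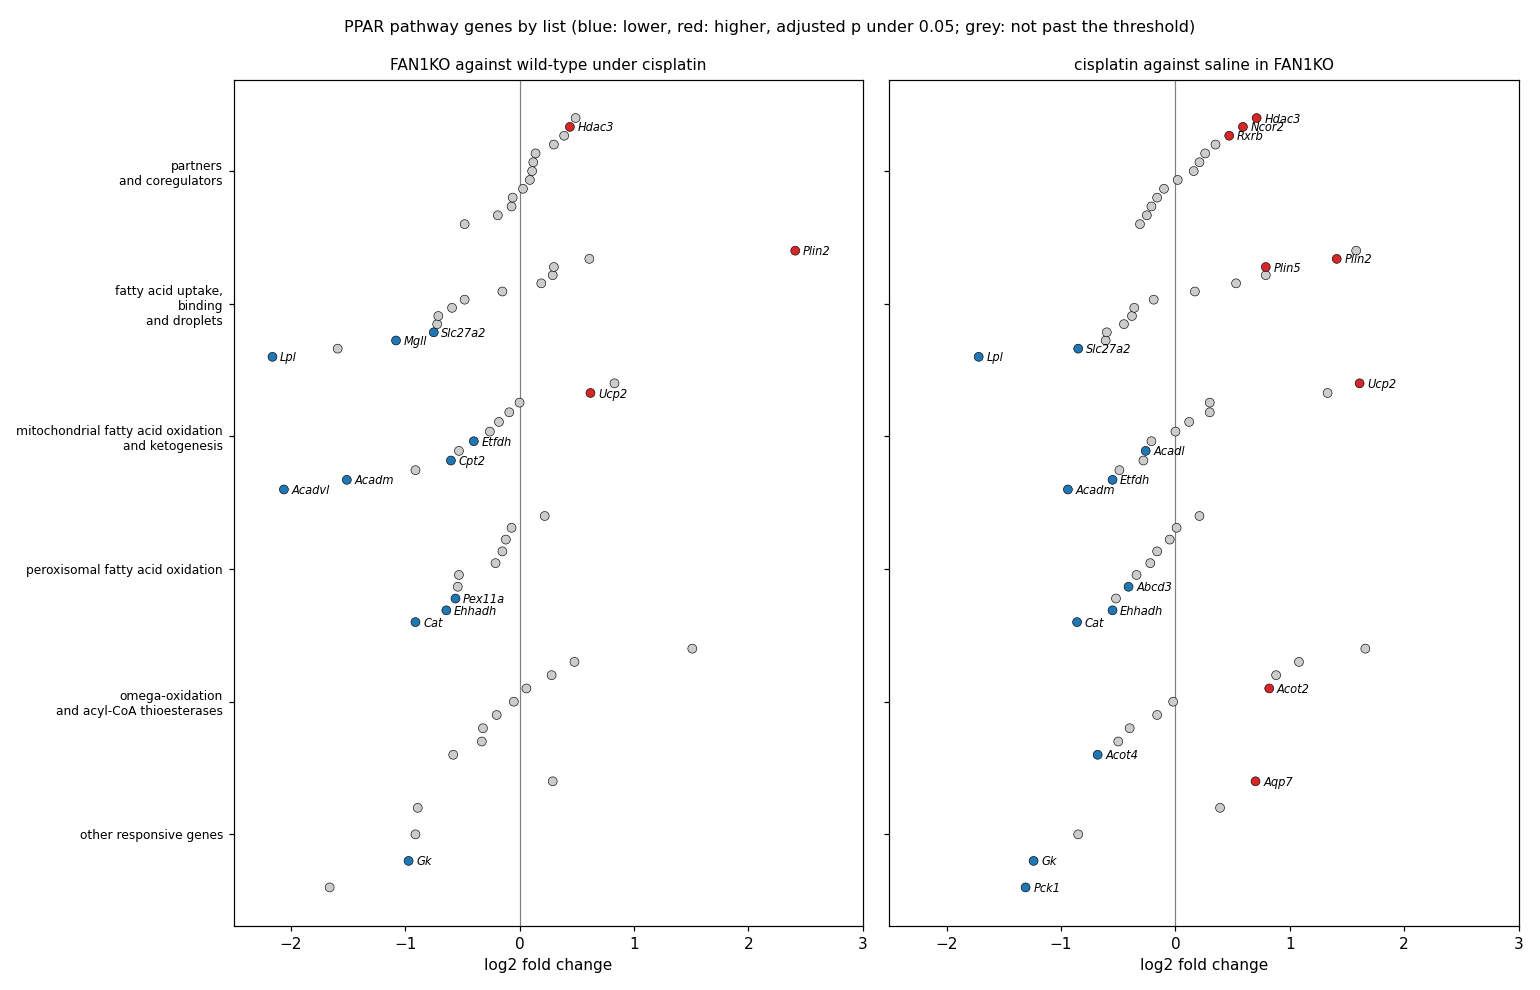
Log2 fold change of each of the 63 tested PPAR pathway genes by list, for FAN1KO against WT under cisplatin and for cisplatin against saline in FAN1KO, with called genes coloured and named. Lpl, Acadm, Gk and Cat lie to the left of 0 in both panels, and Plin2 and Ucp2 to the right.

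Acadm, the medium-chain acyl-CoA dehydrogenase gene, fell by 1.51 under cisplatin (SE 0.13, adjusted p = 8.84e-05), from 1033 to 1284 TPM in WT to 379 to 465 in FAN1KO. It was the 1 pathway gene called lower in saline also (-0.74, SE 0.13, adjusted p = 0.025), at 748 to 894 against 1287 to 1352 TPM. The saline call ended without any 1 of WT saline 1, 2 or 3 or FAN1KO saline 1 or 3 (adjusted p = 0.11, 0.116, 0.0712, 0.0839 and 0.103) and in 4 other settings: median-ratio scaling (0.109), no filter (0.057), the replicate block (0.0548) and the saline libraries alone (0.127).

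Acadvl, its very-long-chain counterpart, was 326, 363 and 367 TPM in WT cisplatin and 166, 67.1 and 51.6 in FAN1KO cisplatin (-2.06, SE 0.54, adjusted p = 0.0205). In saline it was 304 to 338 in WT and 179, 44.3 and 38.5 in FAN1KO, without overlap, but did not pass (-2.24, adjusted p = 0.121). The cisplatin call ended without WT cisplatin 1 (adjusted p = 0.0526) or FAN1KO cisplatin 2 (0.0722) or 3 (0.0572). The difference of the genotypes' responses was 0.18 for Acadvl (SE 0.76, adjusted p = 0.91).

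Cat, the peroxisomal catalase gene, was 559 to 617 TPM in WT cisplatin and 273 to 366 in FAN1KO cisplatin (-0.91, SE 0.12, adjusted p = 0.000977). Gk, the glycerol kinase gene, was 155 to 199 and 72.3 to 118 TPM (-0.97, SE 0.18, adjusted p = 0.00464). Mgll, which encodes a lipase of stored fat, differed by -1.08 (SE 0.27, adjusted p = 0.019), a call that ended without WT cisplatin 2 (0.0524) or 3 (0.0571) or FAN1KO cisplatin 1 (0.0865).

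Plin2, the gene of a lipid droplet coat protein, had the largest rise of the pathway genes between genotypes under cisplatin. It was 26.2, 32.9 and 14.6 TPM in WT saline, 82.4, 73.8 and 50.3 in FAN1KO saline, 20.5, 43.9 and 40.1 in WT cisplatin and 216, 160.2 and 171 in FAN1KO cisplatin. The FAN1KO groups lay above the WT groups under both treatments, at 2.41 under cisplatin (SE 0.34, adjusted p = 0.00133) and 1.49 in saline (SE 0.34, adjusted p = 0.0943), and cisplatin raised it in FAN1KO by 1.41 (SE 0.34, adjusted p = 0.00825). Ucp2, a mitochondrial carrier gene, and Hdac3, a corepressor subunit gene, were called higher under cisplatin (0.62 and 0.44, adjusted p = 0.0449 and 0.0433). Both calls ended under median-ratio scaling (0.34 and 0.16, adjusted p = 0.198 and 0.346), without the filter (0.0587 and 0.0501), with the replicate block (0.0621 and 0.0728), without the trend (0.0545 and 0.0562) and with the cisplatin libraries alone (0.128 and 0.0668). They ended also without WT cisplatin 1 or 2 or FAN1KO cisplatin 1 or 2 (adjusted p = 0.161, 0.0709, 0.154 and 0.16 for Ucp2, and 0.145, 0.095, 0.162 and 0.0934 for Hdac3), and for Hdac3 without FAN1KO cisplatin 3 (0.0503).

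For cisplatin against saline in FAN1KO, 11 of the 63 pathway genes (17.5%) were called lower and 8 (12.7%) higher. The shares of all genes tested were 4.9% and 34.9%. Median-ratio scaling gave 19 and 2 pathway genes, where 2047 and 2333 of all 14972 genes tested were called lower and higher. Lpl (-1.72, adjusted p = 0.00148), Gk (-1.24, 0.000707) and Pck1, a gluconeogenesis gene (-1.31, 0.0262), fell. Ucp2 (1.61, adjusted p = 0.000345) and the acyl-CoA thioesterase gene Acot2 (0.82, 0.0223) rose. Pck1 lost its call without FAN1KO saline 2 or 3 or FAN1KO cisplatin 3 (adjusted p = 0.0663, 0.0619 and 0.0827), and Acot2 without FAN1KO saline 1 or FAN1KO cisplatin 2 or 3 (0.0883, 0.065 and 0.0559) and under median-ratio scaling (0.119). In WT kidneys 0 of 63 passed the limma test for cisplatin against saline.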

How the data were processed

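Whole-kidney RNA of 12 mice was sequenced, and the authors deposited a table of TPM values for 27179 genes, which sum to 1000000 per library. The processing notes name mm10 and limma, and the aligner, annotation, read length and strand handling are not given in the sources used here. Groups and replicate numbers came from the labels, which name separate mice. A gene was kept where 3 or more libraries had a TPM of 1 or above (14972 genes), and log2(TPM + 1) was fitted with limma 3.58.1 (R 4.3.3) with 4 group means, a mean-variance trend and Benjamini-Hochberg adjustment at 0.05. Fold changes on this scale understate those of low genes. Gene symbols matched for 25275 of 27179 identifiers.

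Reads were recovered from the steps in the values: all 178705 values above 0 came out within 0.05 of a whole read, as did 4 of 500 control genes moved at random. The gene length the steps imply equalled the annotated one for 207 of 209 small RNA genes. Exact permutation tests were two-sided. Alternatives were a pseudocount of 0.1, no filter, median-ratio scaling, a replicate block, the Y-linked level as a covariate, the 8 libraries without Y-linked RNA, no trend, voom on recovered reads, the libraries of a comparison alone and each library left out. DR1 matching and figures used Python 3.11.15, Biopython 1.88 and matplotlib 3.10.9.

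The members and lists were chosen with earlier results of these data known. Named were all members, and of the pathway genes called in a comparison up to 6 with the largest rise and up to 6 with the largest fall for FAN1KO against WT under cisplatin, or up to 3 of each elsewhere. For each member the 2 genes with the highest Pearson correlation were named. The DR1 consensus is textbook knowledge.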

Additional observations from a re-analysis of the deposited data

Results flagged for a closer look

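In the test of whether FAN1KO and WT kidneys responded differently to cisplatin, 3 of 63 pathway genes (4.76%) passed below 0 and 0 above it, where 1.02% and 5.22% of all genes tested did. Gk differed by -1.06 (SE 0.25, adjusted p = 0.0394 by limma): its mean was 209 TPM in WT saline, 183 in WT cisplatin, 221 in FAN1KO saline and 94.3 in FAN1KO cisplatin. For Cat the value was -1.04 (SE 0.17, adjusted p = 0.0124), with means of 517, 587, 568 and 314 TPM in the same order. Acadm gave -0.78 (SE 0.18, adjusted p = 0.0331), with means of 1330, 1189, 800.5 and 415.9 TPM. Of the 3, Acadm was already lower in FAN1KO saline kidneys. Gk lost its call without any 1 library other than WT cisplatin 2 and FAN1KO cisplatin 3 (adjusted p = 0.0587 to 0.0883 where lost), under median-ratio scaling (-1.39, adjusted p = 0.0664), with the replicate block (0.0736), without the trend (0.0505) and by voom (0.0526). Acadm lost its call without any 1 library other than WT cisplatin 1 and FAN1KO cisplatin 3 (0.0565 to 0.0916 where lost), and with the replicate block (0.0525).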

How the results depend on the processing

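With 3 mice a group, a whole-kidney sample and 1 library with Y-linked RNA per group, intervals were wide for Cyp4a10, Cyp4a14 and Fabp1, and Pparg rested on few reads. The Pdk4 and Angptl4 calls for cisplatin against saline in FAN1KO held in all 9 other settings and with any 1 library left out. The cause of the changes below was not tested. For counts over genes tested, the reported values are those of the report, and they moved as follows.

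Between genotypes under cisplatin, genes lower numbered 1155 with median-ratio scaling, 1288 with the Y-linked covariate and 1162 among libraries without Y-linked RNA, and genes higher 1388 with that scaling, 6035 with the covariate and 1721 from the cisplatin libraries alone. Members lower numbered 2, 3 and 0 with the covariate, without the Y-linked libraries and with the cisplatin libraries alone, and members higher 1 with the block, 2 with the covariate, 1 without the Y-linked libraries and 1 by voom. Between genotypes in saline, genes lower numbered 36 without the filter, 29 with the block, 248 with the covariate, 178 without the Y-linked libraries and 16 from the saline libraries alone, and genes higher 80 with median-ratio scaling, 32 with the block, 173, 117 and 11.

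For cisplatin against saline in FAN1KO, genes lower numbered 2047 with median-ratio scaling, 1222 with the covariate and 1256 without the Y-linked libraries, genes higher 2333 and 7919 with the first pair, and members lower 1 with each of that pair. In WT, genes lower numbered 1 with median-ratio scaling, 1 with the covariate and 3 without the Y-linked libraries, and genes higher 15, 57 and 60, and 0 with the block or the libraries of the comparison alone. For the unequal responses, genes lower numbered 73 with the block, 646 with the covariate and 434 without the Y-linked libraries, genes higher 374 with median-ratio scaling, 351, 4088 and 2004, members lower 1 with the covariate and 1 without the Y-linked libraries, and members higher 1 with the covariate.

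Signs of members turned as follows. Between genotypes under cisplatin, Cyp4a10 was -0.51 and Cyp4a14 -0.93 without the Y-linked libraries. In saline, Rxra was 0.04 with median-ratio scaling and Cyp4a10 -0.13 without the Y-linked libraries. For cisplatin against saline in FAN1KO, Pparg was 0.10 with the smaller pseudocount and 0.13 by voom, Cyp4a10 -0.12 with median-ratio scaling and -0.08 without the Y-linked libraries, and Cyp4a14 -0.38 without them. In WT, Rxra was -0.05 with median-ratio scaling. For the unequal responses, Ppara was 0.11, Cyp4a10 -0.38 and Cyp4a14 -0.95 without the Y-linked libraries, and Angptl4 -0.12 and Cyp4a10 -0.30 with median-ratio scaling.

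With 1 library left out, genotypes under cisplatin gave 370 to 605 genes lower, 1169 to 2943 higher, and 0 to 1 members in each direction, saline 19 to 41 lower and 22 to 38 higher, cisplatin in FAN1KO 482 to 685 lower and 3140 to 5391 higher, cisplatin in WT 0 to 41 higher, and unequal responses 51 to 216 lower and 217 to 981 higher. Signs turned for Cyp4a10 (-0.45 to 0.85), Cyp4a14 (-0.83 to 2.71) and Ppara (-0.34 to 0.11) between genotypes under cisplatin. In saline they turned for Cyp4a10 (-0.47 to 0.84), Cyp4a14 (-1.19 to 2.40), Fabp1 (-0.88 to 1.32), Pdk4 (-0.51 to 0.25), Ppara (-0.22 to 0.05) and Rxra (-0.09 to 0.04). For cisplatin in FAN1KO they turned for Cyp4a10 (-0.02 to 0.59), Cyp4a14 (-0.28 to 1.63) and Pparg (-0.23 to 0.29), and in WT for Cyp4a10 (-0.55 to 1.14), Cyp4a14 (-1.77 to 2.92), Fabp1 (-0.86 to 1.5), Pparg (-0.10 to 0.39) and Rxra (-0.03 to 0.10). For unequal responses they turned for Angptl4 (-0.22 to 0.61), Cyp4a10 (-0.82 to 0.87), Cyp4a14 (-1.99 to 2.70), Ppara (-0.30 to 0.15) and Pparg (-0.39 to 0.15).

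The mean correlation of the deviations of libraries with the same replicate number was -0.24, -0.21, -0.14 and -0.18 over the 4 pairs of groups. Single values ran from -0.61 to 0.51 between genotypes in saline and from -0.6 to 0.6 between treatments in WT. The library with Y-linked RNA had different numbers in the groups compared. These values therefore cannot decide whether the numbers pair the mice. Each group holds each replicate number once, so a replicate block cannot move a difference between groups, only its error. The Pdk4 difference between genotypes under cisplatin was therefore 1.38 with and without the block. Its call did change, since it passed the threshold with the block and not in the reported fit.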
